A study of Mus musculus with 80 samples.

Results

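The canonical Wnt pathway was followed at 9 genes through chemical reprogramming of mouse fibroblasts, namely Ctnnb1, which encodes β-catenin, the 4 TCF/LEF factors Tcf7, Tcf7l1, Tcf7l2 and Lef1, and the target genes Axin2, Sp5, Nkd1 and Dkk1. Each gene was taken with its mm10 bounds extended by 10 kb either side, and every peak of 40 deposited peak lists that overlapped such a region by at least 1 bp was kept. This gave 473 of 710560 peaks, for 9 of 21883 protein-coding genes. The lists come from CUT&Tag, in which an antibody guides a transposase to a histone mark, with 80 libraries as 2 for each of 5 marks at each of 8 stages. D0 was embryonic fibroblasts (MEFs) of strain 129XOG2, which carry the OG2 transgene, taken at passages 1-3 and grown in serum. D2, D4, D6, D8, D10 and D12 were cells labelled as reprogramming intermediates, collected every 2 days in a medium whose composition the labels do not give. iPSC was the resulting pluripotent line, grown over feeder cells (their type is not named) with N2, B27, LIF, PD0325901 and CHIR99021, an inhibitor of the kinase GSK3. The serum medium is listed without CHIR99021, and whether the reprogramming medium held it is not stated in the labels.

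In the resting pathway β-catenin is bound by a complex built on Axin and APC, phosphorylated by GSK3 and degraded. A Wnt signal, or inhibition of GSK3, lets it accumulate and enter the nucleus, where it binds TCF/LEF proteins at DNA and turns on genes that include Axin2 and Nkd1, which act back on the pathway. TCF7L1 is best known in mouse embryonic stem cells as a repressor of pluripotency genes, and its repression is relieved when β-catenin binds it. Of the 5 marks, H3K4me3 lies at active and poised starts, H3K27ac at active starts and enhancers, H3K18la is a lactate-derived mark, H3K27me3 is laid down by Polycomb and H3K9me3 marks heterochromatin.

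The promoters of 3 target genes are shown because their starts are described in most detail below. Each runs from 250 bases before to 50 bases after the annotated start, in the RefSeq table for GRCm38.p6, and capitals mark the core letters of a TCF/LEF site. Sp5 lies at chr2:70474673-70474972 on the plus strand, Dkk1 at chr19:30549447-30549746 on the minus strand and Axin2 at chr11:108920099-108920398 on the plus strand.
Sp5: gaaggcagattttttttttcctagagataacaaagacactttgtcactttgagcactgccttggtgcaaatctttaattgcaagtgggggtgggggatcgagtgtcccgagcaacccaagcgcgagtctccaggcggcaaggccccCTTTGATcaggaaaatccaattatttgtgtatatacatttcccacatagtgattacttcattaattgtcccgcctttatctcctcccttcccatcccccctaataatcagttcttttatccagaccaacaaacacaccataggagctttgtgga
Dkk1: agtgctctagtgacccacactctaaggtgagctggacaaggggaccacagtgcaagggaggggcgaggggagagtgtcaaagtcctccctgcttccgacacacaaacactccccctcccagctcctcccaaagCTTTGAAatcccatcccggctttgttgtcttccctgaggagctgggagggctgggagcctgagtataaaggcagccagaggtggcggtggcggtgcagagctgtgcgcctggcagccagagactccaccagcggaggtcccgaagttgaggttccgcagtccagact
Axin2: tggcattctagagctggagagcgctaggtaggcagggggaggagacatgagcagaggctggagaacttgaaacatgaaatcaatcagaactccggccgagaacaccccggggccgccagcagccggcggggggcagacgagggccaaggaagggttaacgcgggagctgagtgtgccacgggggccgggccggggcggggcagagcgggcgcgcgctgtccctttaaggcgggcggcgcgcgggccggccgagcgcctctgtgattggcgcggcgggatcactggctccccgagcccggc
The letters CTTTGAT or CTTTGAA were searched on both strands. The Sp5 promoter holds CTTTGAT with its first base at -104 from the start, and the Dkk1 promoter holds CTTTGAA at -117. None of the tabulated promoters of the other 7 genes holds either. At Nkd1 the tabulated start lies 6291 bp inside the gene bound, and the sequence at the bound was not searched. Of 32817 promoters of the same length in the table, 3.73% hold the first, 5.14% the second and 8.65% at least 1 of them, and 7.15% hold the unrelated letters CACGTG, which 1 of 4 Lef1 promoters also holds. The promoters differed in CpG content. Ctnnb1 had 46 and 51 CpG in 300 bases, Tcf7 45 at its first start, Tcf7l1 and the first Tcf7l2 start 34 each and Axin2 31. Dkk1 had 9 and Sp5 6, against a median of 7 over all promoters. The 4 Lef1 promoters had 18, 21, 8 and 5, and the second starts of Tcf7 and Tcf7l2 had 17 and 7. The tabulated Nkd1 start, which lies away from the H3K4me3 peak of that gene, had 6.

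There is 1 list per mark and stage, so no value has a replicate spread and no test was made: a difference between stages is a difference between 2 lists, and a missing peak means that none reached a p-value of 1e-05 there. Lists held 7009 to 37784 peaks, and the most common background behind their peaks, used as a measure of depth, ran from 1.31 to 4.06 fragments. The H3K18la list of D2 was the shortest and the shallowest, and its peak names carry a library number, so it may hold 1 library. As a check of the labels, 6 of 8 fibroblast marker genes had H3K27ac at a start at D0, 3 at D12 and 0 in iPSCs. Of 8 pluripotency markers 0, 4 and 5 did, and of all genes 56.1%, 52.7% and 30.8%. In iPSCs 4 of the 8 fibroblast markers had H3K4me3 at a start, beside 62.9% of all genes, and 4 had H3K27me3, beside 19.5%. The share of feeder chromatin in the iPSC lists was not tested.

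H3K4me3 was the constant mark of these genes. All 9 had an H3K4me3 peak in their region at every stage, where 69.6%, 72%, 71.9%, 71.8%, 72.4%, 73.4%, 73% and 75% of all protein-coding genes did in stage order. The regions are long, with a median of 56.9 kb (range 22.8 to 212) against 37.2 kb over all genes, so they hold more bases in which a peak can lie. Within 1 kb of an annotated start, 8 of the 9 had H3K4me3 at D0, D12 and in iPSCs alike, beside 60.7%, 62.2% and 62.9% of genes. The exception was Nkd1, whose tabulated start lies 6291 bp inside its gene bound: its H3K4me3 peak lay within 1 kb of the bound at every stage.

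**Figure D1:**
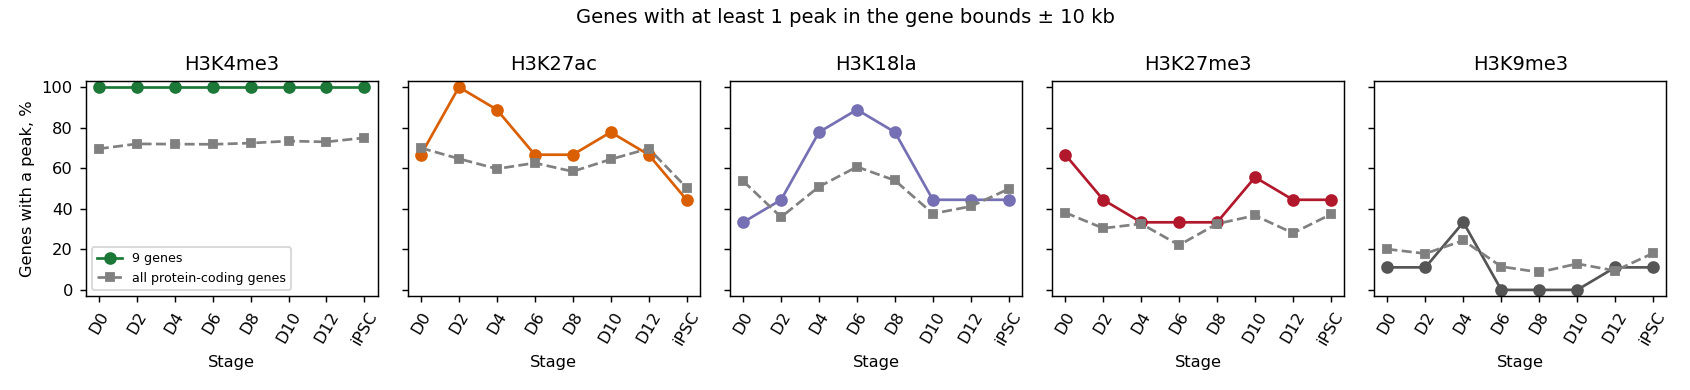
Percent of genes with at least 1 peak in the gene bounds extended by 10 kb (y axis) at each of 8 stages (x axis), for the 9 genes (coloured circles) and all 21883 protein-coding genes (grey squares), 1 panel per mark. H3K4me3 stays at 9 of 9 genes, while H3K27ac runs from 9 at D2 to 4 in iPSCs and H3K18la stands at 8 at D6 in the lists as deposited.

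H3K27ac reached all 9 genes at D2 and 4 in iPSCs. From D0 on, 6, 9, 8, 6, 6, 7 and 6 genes had it up to D12, beside 70%, 64.7%, 59.7%, 62.6%, 58.4%, 64.4% and 69.7% of all genes, and the 4 in iPSCs (Tcf7l1, Tcf7l2, Lef1 and Axin2) stand beside 50.4%. At a start, 4 genes had H3K27ac at D0 (56.1% of all genes), 5 at D12 (52.7%) and 1 in iPSCs (30.8%), which was Axin2. Between D0 and D2 the 3 genes without H3K27ac, Ctnnb1, Tcf7 and Sp5, all acquired a peak, as did 6.96% of the genes that had none at D0. Between D12 and iPSC 3 of 6 lost it (Tcf7, Nkd1 and Dkk1), beside 32.7% of all genes with it at D12. With the lists of the mark cut to equal length, 3 genes had H3K27ac at D0 in place of 6, 5 acquired it from D0 to D2 and 1 lost it from D12 to iPSC. These pairs of stages, and those given next for H3K18la and H3K27me3, were chosen after the values were seen.

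In the lists as deposited H3K18la was called at 3, 4, 7, 8, 7, 4, 4 and 4 genes in stage order, beside 53.7%, 35.9%, 50.9%, 60.7%, 54%, 37.6%, 41.2% and 49.8% of all genes. Of the 6 genes without it at D0, 5 had it at D6 (Tcf7, Lef1, Axin2, Sp5 and Dkk1), beside 28.1% of all such genes. Starts with H3K18la numbered 1 at D0 (37.2% of all genes), 3 at D12 (28.6%) and 1 in iPSCs (31%). The D6 list was the longest of the mark, with 18455 peaks, and the deepest, with a background of 3.28 fragments against 2.49 at D0. With the lists cut to the length of the shortest the counts were 1, 4, 2, 4, 3, 4, 2 and 2, so the higher counts at D4, D6 and D8 were not seen, and 4 genes acquired the mark from D0 to D6.

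H3K27me3 was called at 6, 4, 3, 3, 3, 5, 4 and 4 genes in stage order, beside 38.1%, 30.4%, 32.6%, 22.1%, 32.6%, 36.7%, 28% and 37.3% of all genes. Tcf7, Lef1, Axin2 and Sp5 had it at D0 and not at D2, which is 4 of 6 genes beside 29.8% of all genes with the mark at D0. Tcf7l1 and Tcf7l2 went the other way, with a peak at D2 and none at D0. The D0 list was the longest and deepest of the mark, with 19842 peaks and a background of 4.06 fragments against 14438 and 2.90 at D2. At a start H3K27me3 was called at 4 genes at D0 (21.1% of all genes), 2 at D12 (10.4%) and 2 in iPSCs (19.5%). H3K9me3 was rare: 1, 1, 3, 0, 0, 0, 1 and 1 genes had a peak in stage order, beside 20.1%, 17.9%, 24.4%, 11.5%, 8.72%, 12.9%, 9.46% and 18.1% of all genes, and none lay at a start at D0, D12 or in iPSCs (1.17%, 0.695% and 2.79% of all genes).

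**Figure D2:**
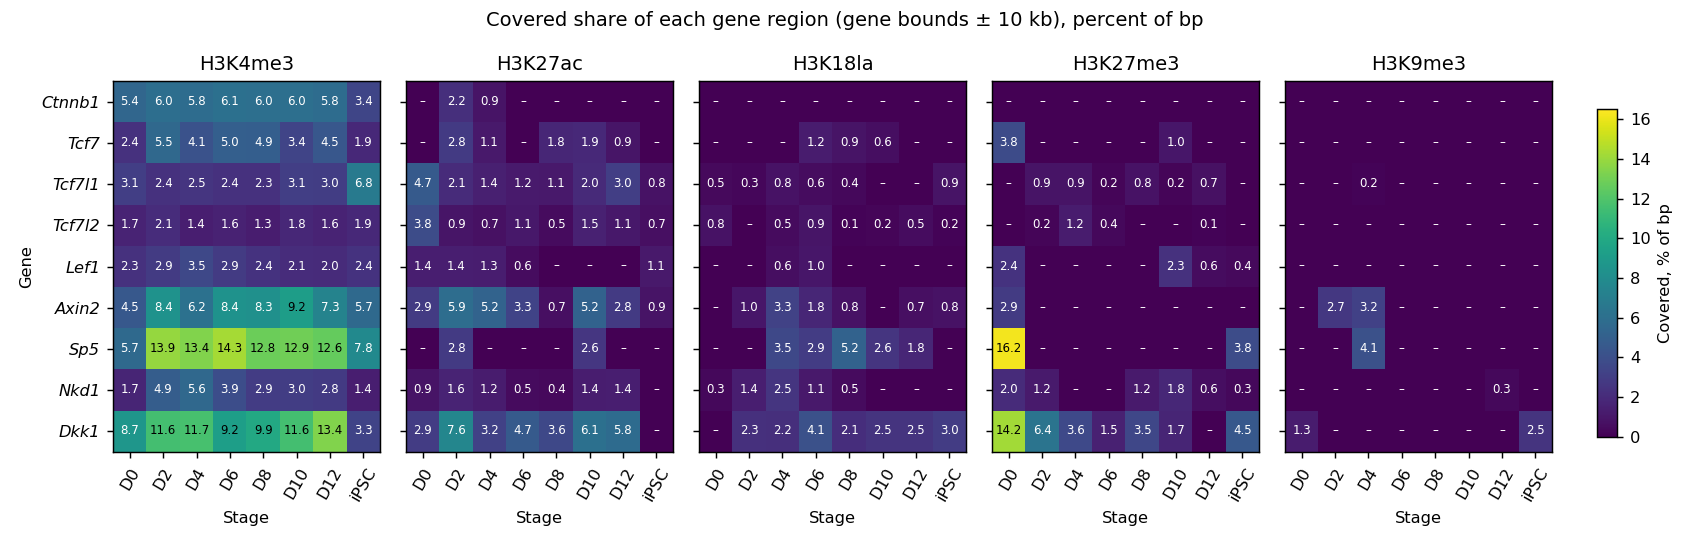
Percent of each gene region covered by peaks, as colour and number, for 9 genes (rows) at 8 stages (columns) in 5 marks (panels); a dash means no peak. Sp5 at D0 has the highest H3K27me3 value (16.2%), and its H3K4me3 row lies between 12.6% and 14.3% from D2 to D12.

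Covered percent is per length, so a start peak of a given width weighs more in a short region than in a long one. In H3K4me3 the order at D0 ran from Dkk1 (8.70%), Sp5 (5.66%), Ctnnb1 (5.43%) and Axin2 (4.55%) down to Nkd1 (1.69%) and Tcf7l2 (1.67%). Dkk1 and Sp5 have the shortest regions (23.6 and 22.8 kb) and Tcf7l2 the longest (212 kb). In bases the D0 order differed, with 5615 bp covered at Tcf7l1, 3532 at Tcf7l2, 2054 at Dkk1 and 1291 at Sp5, the fewest of the 9. In iPSCs Sp5 led (7.82%), followed by Tcf7l1 (6.81%) and Axin2 (5.67%), while Dkk1 stood at 3.29% and Nkd1 was lowest at 1.39%. With no spread per value, the order of close neighbours such as Sp5 and Ctnnb1 at D0 carries no weight. The authors' fold is a ratio to the local background, which was high at broadly marked genes, so it can be low where fragments are many. For this reason the fragments at the summit were also set over the background of the whole list. By that measure 8 of the 9 genes had a higher H3K4me3 start peak in the median of D2 to D12 than both at D0 and in iPSCs, beside 72.8% of the 9213 genes with a value at every stage, so the direction is that of most genes. The size differed: the ratio of the middle stages to D0 was 5.13 at Dkk1, 3.13 at Sp5 and 2.21 at Tcf7, against a median of 1.16 over all genes, of which 99.9%, 98.5% and 94.8% had a lower ratio. With lists of equal length, where some genes have no peak left at a stage, 5 of the 9 showed this. The ratio was 1.30 at Ctnnb1 and Lef1, 1.34 at Axin2 and 1.63 at Nkd1. At Tcf7l2 it was 1.68 within 1 kb of the start, where the D0 signal is split over peaks, and 1.05 within 2.5 kb, which takes in the next D0 peak (88.2 against 53.5); the other 8 ratios were the same in both windows. Tcf7l1 was the exception at 0.91. At Lef1 the summit over the list background was 76.5 at D0 and 128 at D8. It then stood at 67.3 at D10 and 43.8 at D12, so the Lef1 median does not show this late fall below D0. This measure was added after the data were seen.

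**Figure D3:**
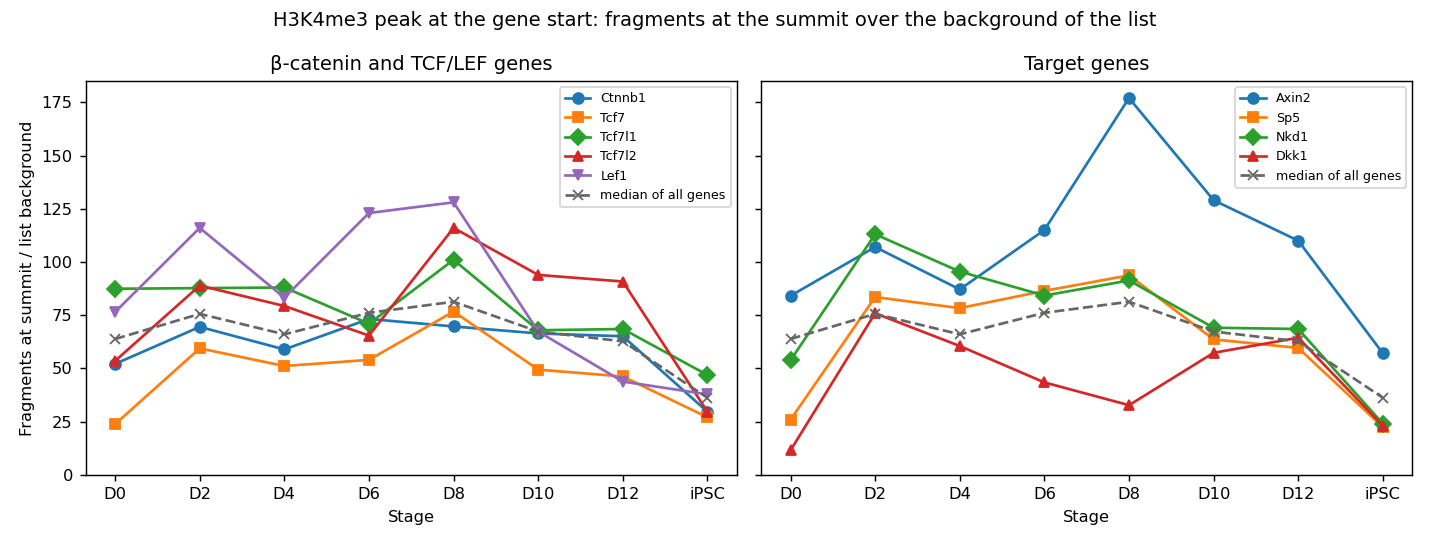
Fragments at the summit of the highest H3K4me3 peak within 1 kb of a start or of the upstream gene bound, divided by the list's background (y axis), by stage (x axis), for the β-catenin and TCF/LEF genes (left) and the target genes (right), with the median over 9213 genes (dashed). Axin2 reaches 177 at D8, and Dkk1 runs from 11.5 at D0 to 75.9 at D2.

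Ctnnb1 (chromosome 9, 120933400 to 120960507) had the plainest pattern. Its H3K4me3 peak, from 0.5 to 3.4 kb downstream of the first start, was called at all 8 stages and was 2556 to 2855 bp wide from D0 to D12 and 1170 bp in iPSCs. The authors' fold of that peak was 4.92, 4.70, 4.14, 4.13, 4.12, 3.86, 3.69 and 3.26 in stage order. Relative to the list background the summit stood at 52.1 at D0, between 58.9 and 73.2 during reprogramming and at 29.6 in iPSCs, where the median of all genes was 36.2. H3K27ac was called at its start at D2 (fold 3.39) and D4 (3.71) alone. No list had an H3K18la, H3K27me3 or H3K9me3 peak in the region. A second H3K4me3 peak lay 29.5 to 29.9 kb downstream in iPSCs.

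Lef1 (chromosome 3, 131110297 to 131224357), a TCF/LEF factor known mostly as an activator, had 2 neighbouring marked sites. The start carried H3K4me3 at all 8 stages, with fold 2.80 to 4.52. It carried H3K27ac at D0, D2 and D4 (4.85, 2.70 and 3.12) and H3K18la at D4 and D6, 1.5 to 2.1 kb downstream. After D6 neither was called there. H3K27me3 lay 0.4 to 2.3 kb downstream at D10, D12 and in iPSCs (3.31, 3.24 and 3.37). At D0 it lay a little farther on, at 2.9 to 3.5 kb (2.49), within 1 kb of another annotated start, and at 45.5 to 46.0 kb (5.09), close to a further one, near which D10 also had a peak at 45.2 to 45.5 kb. The second site, from -4.2 to -2.1 kb, had H3K27me3 at D0 with no H3K4me3, and H3K4me3 from D2 to iPSC. It also had H3K27ac at D2, D4 and D6 and H3K18la at D4 and D6, and H3K27me3 again at D10. The iPSC list alone held H3K27ac at 80.5 to 81.1 kb and 98.0 to 98.9 kb (3.92 and 4.53) and H3K4me3 at 68.2 to 69.2 kb (7.13), all inside the gene.

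Tcf7 (chromosome 11, 52246527 to 52283383, minus strand), which encodes the β-catenin partner TCF1, had H3K4me3 at its start at all 8 stages. The mark covered 2.36% of the region at D0, between 3.38% and 5.55% on the later days and 1.89% in iPSCs. H3K27me3 lay on both sides of the start at D0, from -1.8 to -0.9 kb and from 0.8 to 1.6 kb, and neither peak was called at any later stage. H3K27ac was called at the start at D12 alone. Inside the gene it lay at 8.9 to 10.2 kb at D2 and D8 and at 21.5 to 22.5 kb at D2, D8 and D10. H3K18la lay over the first stretch at D6 and over the second at D8 and D10.

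Tcf7l1 (chromosome 6, 72626371 to 72789045, minus strand) had H3K4me3 at its start at all stages and H3K27ac there at D0 and each day to D12, with fold 3.56 to 5.53, and not in iPSCs. Of all 9 genes it had the most peaks, 120, in a region of 183 kb. The number of H3K27ac peaks was 12, 5, 3, 5, 4, 6, 9 and 3 in stage order. That of H3K4me3 peaks was 5, 3, 4, 3, 3, 7, 7 and 15. A site 132.7 to 134.0 kb downstream, inside the gene, had H3K4me3 at all 8 stages and H3K27ac at D0, D2, D8, D10 and D12. The peaks at the far end, from 171.6 kb, are not Tcf7l1's own: 16 of the 120 lay within 1 kb of the start of the neighbouring gene Tgoln1. H3K18la was called at the Tcf7l1 start at D2, D4, D6 and D8, and H3K27me3 within 1 kb of it at D4 and D12.

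Tcf7l2 (chromosome 19, 55741797 to 55933659), which encodes TCF4, had H3K4me3 at its first start at all 8 stages. Its H3K27ac peaks numbered 13, 4, 2, 5, 2, 5, 4 and 3 in stage order. A stretch 1.8 to 2.6 kb downstream of the first start had H3K27ac at D0, D2, D4, D8, D12 and in iPSCs (3.29 to 4.52). A second annotated start, 153.5 kb downstream, had H3K4me3 at D0, D2 and D6 and in iPSCs, with fold 7.42, 10, 5.10 and 6.23, and H3K27ac at D0 and D2. At D4 this second start had H3K27me3 (4.01) and no H3K4me3. A stretch inside the gene at 64.6 to 65.9 kb was free of H3K27ac at D0. It had H3K27ac at D2, D4, D6, D10, D12 and in iPSCs (3.71 to 4.75) and H3K18la at D4, D6, D10 and D12. H3K27me3 was scattered over the region at D2, D4, D6 and D12, covering at most 1.24%, and was not called within 1 kb of the first start.

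**Figure D4:**
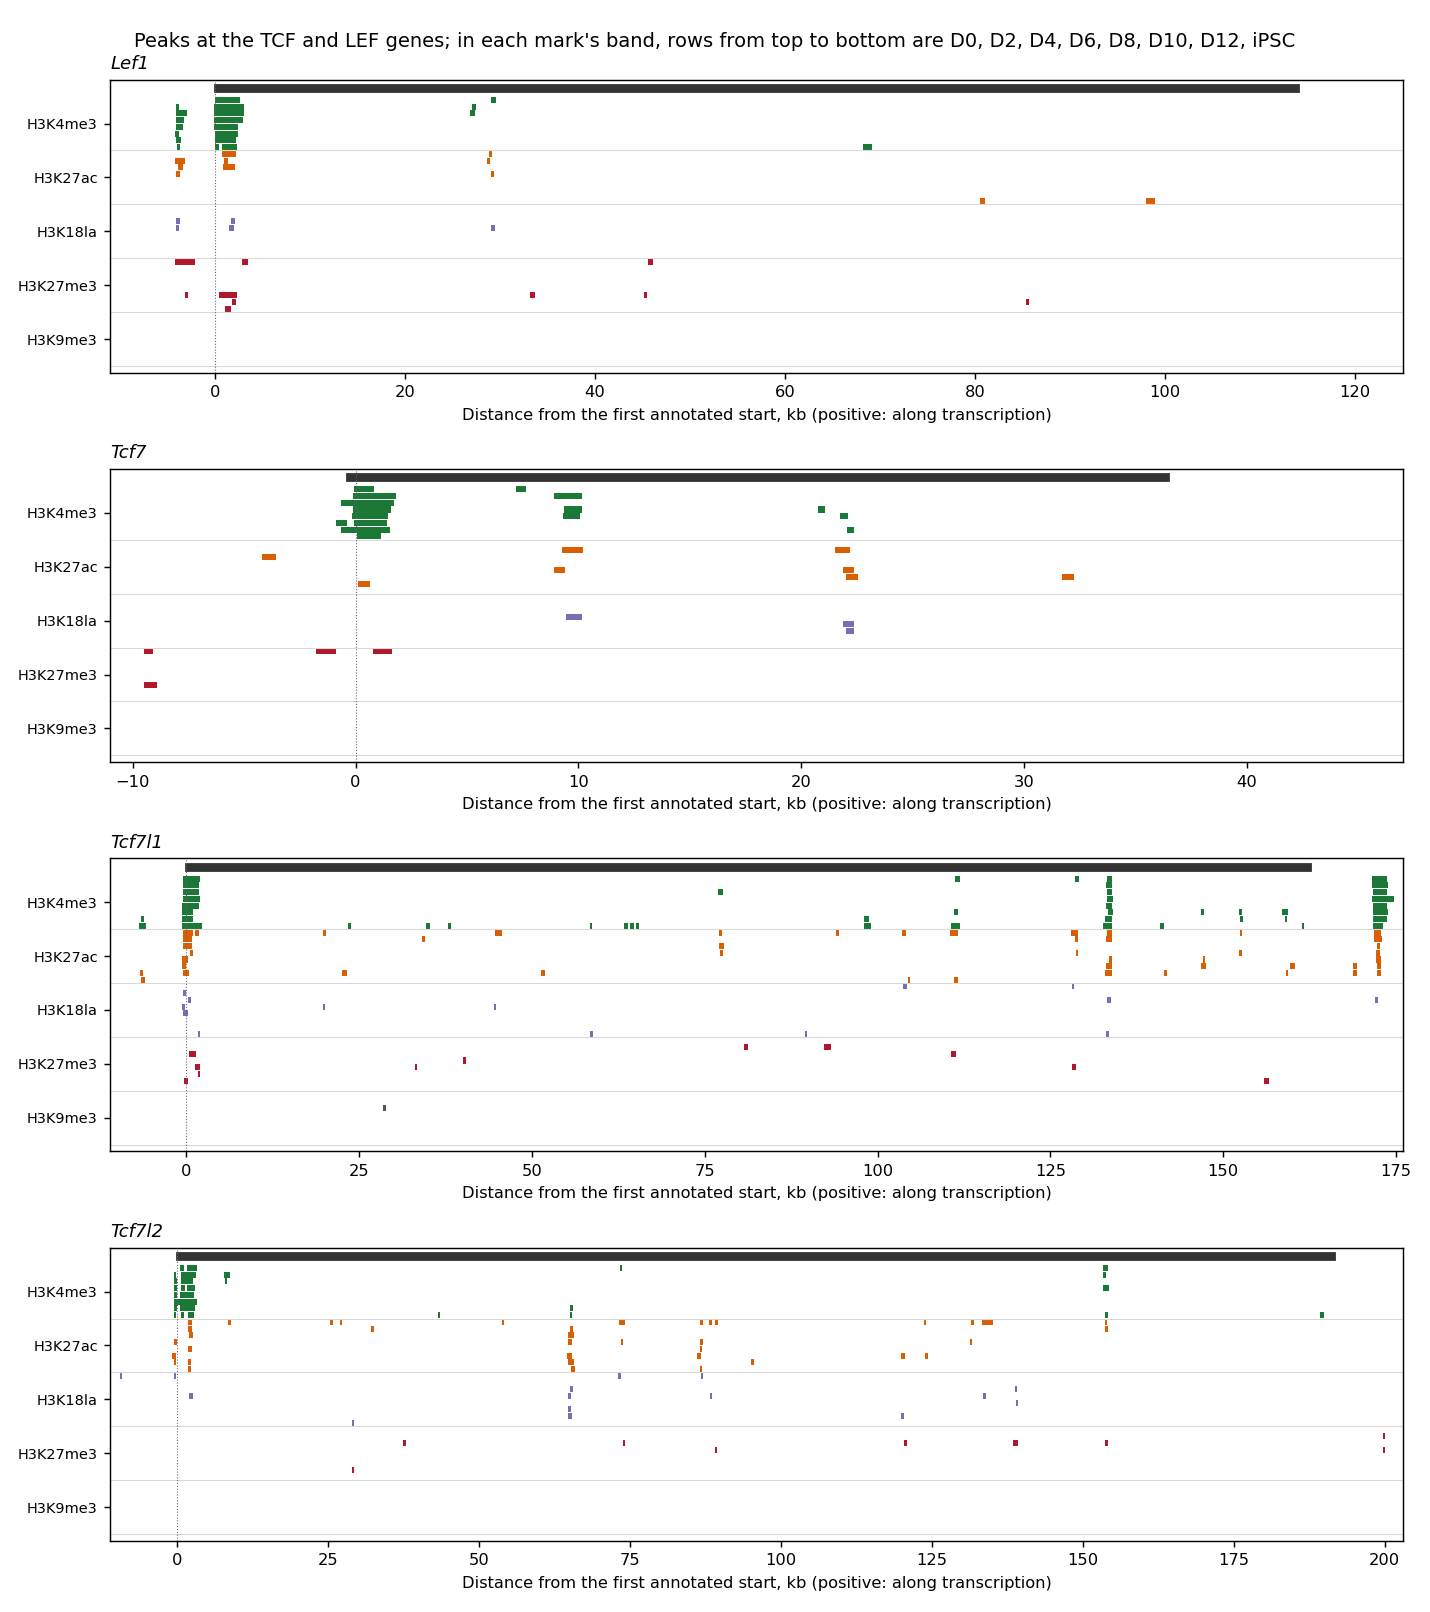
Peaks at Lef1, Tcf7, Tcf7l1 and Tcf7l2 by distance from the first annotated start in kb (x axis); each mark has a band with 8 rows, D0 at the top and iPSC at the bottom, and the black bar is the gene. Lef1 shows H3K27me3 just downstream of its first start in the last 3 rows and 2.9 to 3.5 kb downstream at D0, and the peaks from 171.6 kb at Tcf7l1 lie near a neighbouring gene's start.

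Axin2 (chromosome 11, 108917828 to 108950783) encodes a scaffold of the degradation complex and is the usual readout of β-catenin activity. It was alone among the 9 in having H3K27ac within 1 kb of an annotated start in iPSCs. Outside that window, Tcf7l2 had an iPSC peak 1.9 to 2.3 kb downstream of its first start (4.52). H3K4me3 was called within 1 kb of the Axin2 start in every list, and the covered percent of the region was 4.55, 8.38, 6.18, 8.44, 8.29, 9.19, 7.35 and 5.67 in stage order. H3K27ac over -0.1 to 2.0 kb had a fold of 3.99, 3.4, 3.72 and 4.05 up to D6, of 4.83, 5.11 and 5.10 from D10 to iPSC, and was not called at D8. The highest summit in that stretch, over the list background, was 13.1, 18.7, 28 and 19.6 up to D6. From D10 to iPSC it was 23.9, 14.9 and 16.4, so D4 had the highest value by this measure. H3K18la lay in the same stretch at D2, D4, D6, D8, D12 and in iPSCs. Away from the start, the 2 flanks differed. A stretch inside the gene at 26.3 to 28.5 kb had H3K27ac from D0 to D8 (3.05 to 3.52) and not later, with H3K18la at D4 and D6. Upstream, from -10.9 to -9.1 kb, H3K4me3 was called from D6 to iPSC (4.00 to 4.81) and not before. H3K27me3 was called at 2 places, from -11.4 to -10.6 kb and from 2.9 to 3.7 kb, at D0 alone. H3K9me3 lay between -8.5 and -6.7 kb at D2 and D4.

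Sp5 (chromosome 2, 70474923 to 70477726), a zinc finger factor that is a direct target of β-catenin, had wide H3K27me3 at D0 and wide H3K4me3 on the later days, up to D12. At D0, 4 H3K27me3 peaks covered 16.2% of its region, more than in 98.6% of all genes, and none was called from D2 to D12. Their folds, 1.67 to 2.14, were low, and the local background under them was 22.56 to 25.17 times that of the list. In iPSCs 1 H3K27me3 peak of 876 bp, from -1.9 to -1.0 kb, was called again (4.59). H3K4me3 covered 5.66%, 13.9%, 13.4%, 14.3%, 12.8%, 12.9%, 12.6% and 7.82% in stage order, and the start peak was 1291 bp wide at D0 and 2555 to 3169 bp from D2 to D12. The summit over the list background was 25.9 at D0, 59.6 to 93.7 in between and 22.4 in the iPSC peak that lay next to the start. H3K18la was called within 1 kb of the start at D4, D6, D8, D10 and D12 (2.62 to 4.56). H3K27ac was sparse, with 1 peak upstream at D2, from -3.0 to -2.4 kb, and 1 at 0.9 to 1.5 kb at D10, and none in iPSCs. An H3K9me3 peak lay 9.7 to 10.6 kb downstream at D4.

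Nkd1 (chromosome 8, 88521342 to 88594887), an inhibitor that binds Dishevelled, had its constant H3K4me3 peak at the upstream gene bound, with fold 7.03 at D0, between 2.91 and 6.19 on the later days and 7.87 in iPSCs. H3K27ac was called there at D0, D4, D8 and D10. Distant from it, at 42.9 to 43.9 kb inside the gene and at 75.8 to 76.6 kb beyond its end, counted from the tabulated start, H3K4me3 was called at D2, D4 and D6 and at no other stage. The nearer of these sites also had H3K27ac at D2, D4, D6 and D10 and H3K18la at D2, D4 and D6, and the farther had H3K18la at D4 and D6. H3K27ac was called somewhere in the region at every stage from D0 to D12 and nowhere in iPSCs. H3K27me3 lay from -16.0 to -14.1 kb at D0, D2, D8, D10 and D12, and in iPSCs a peak of 316 bp with fold 2.37 was called near the upstream bound.

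Dkk1 (chromosome 19, 30545876 to 30549496, minus strand), a secreted inhibitor of Wnt receptors, had both H3K4me3 and H3K27me3 within 1 kb of its start. H3K4me3 was called there at all 8 stages (5.72 to 8.50), and H3K27me3 at D0, D2, D4, D6, D8, D10 and in iPSCs (4.11, 3.86, 4.87, 3.79, 3.41, 3.78 and 4.68) but not at D12. The H3K27me3 covered percent was 14.2, 6.36, 3.65, 1.54, 3.53, 1.73, 0 and 4.53 in stage order. H3K27ac was called within 1 kb of the same start from D0 to D12 (4.05 to 5.13) and not in iPSCs, and H3K18la from D2 to iPSC (4.08 to 6.24). Whether the marks sat on the same chromosomes cannot be read from these lists. A second site, 9.2 to 10.5 kb downstream and outside the gene, had H3K4me3 from D0 to D12, with fold 8.69 to 12.4. It had H3K27ac at D2, D6, D10 and D12 and H3K18la at D6 (3.8). At D0 an H3K27me3 peak at 9.8 to 10.7 kb (4.54) overlapped it. In iPSCs that site had none of these marks, and an H3K9me3 peak lay within it at 9.8 to 10.3 kb (6.96).

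**Figure D5:**
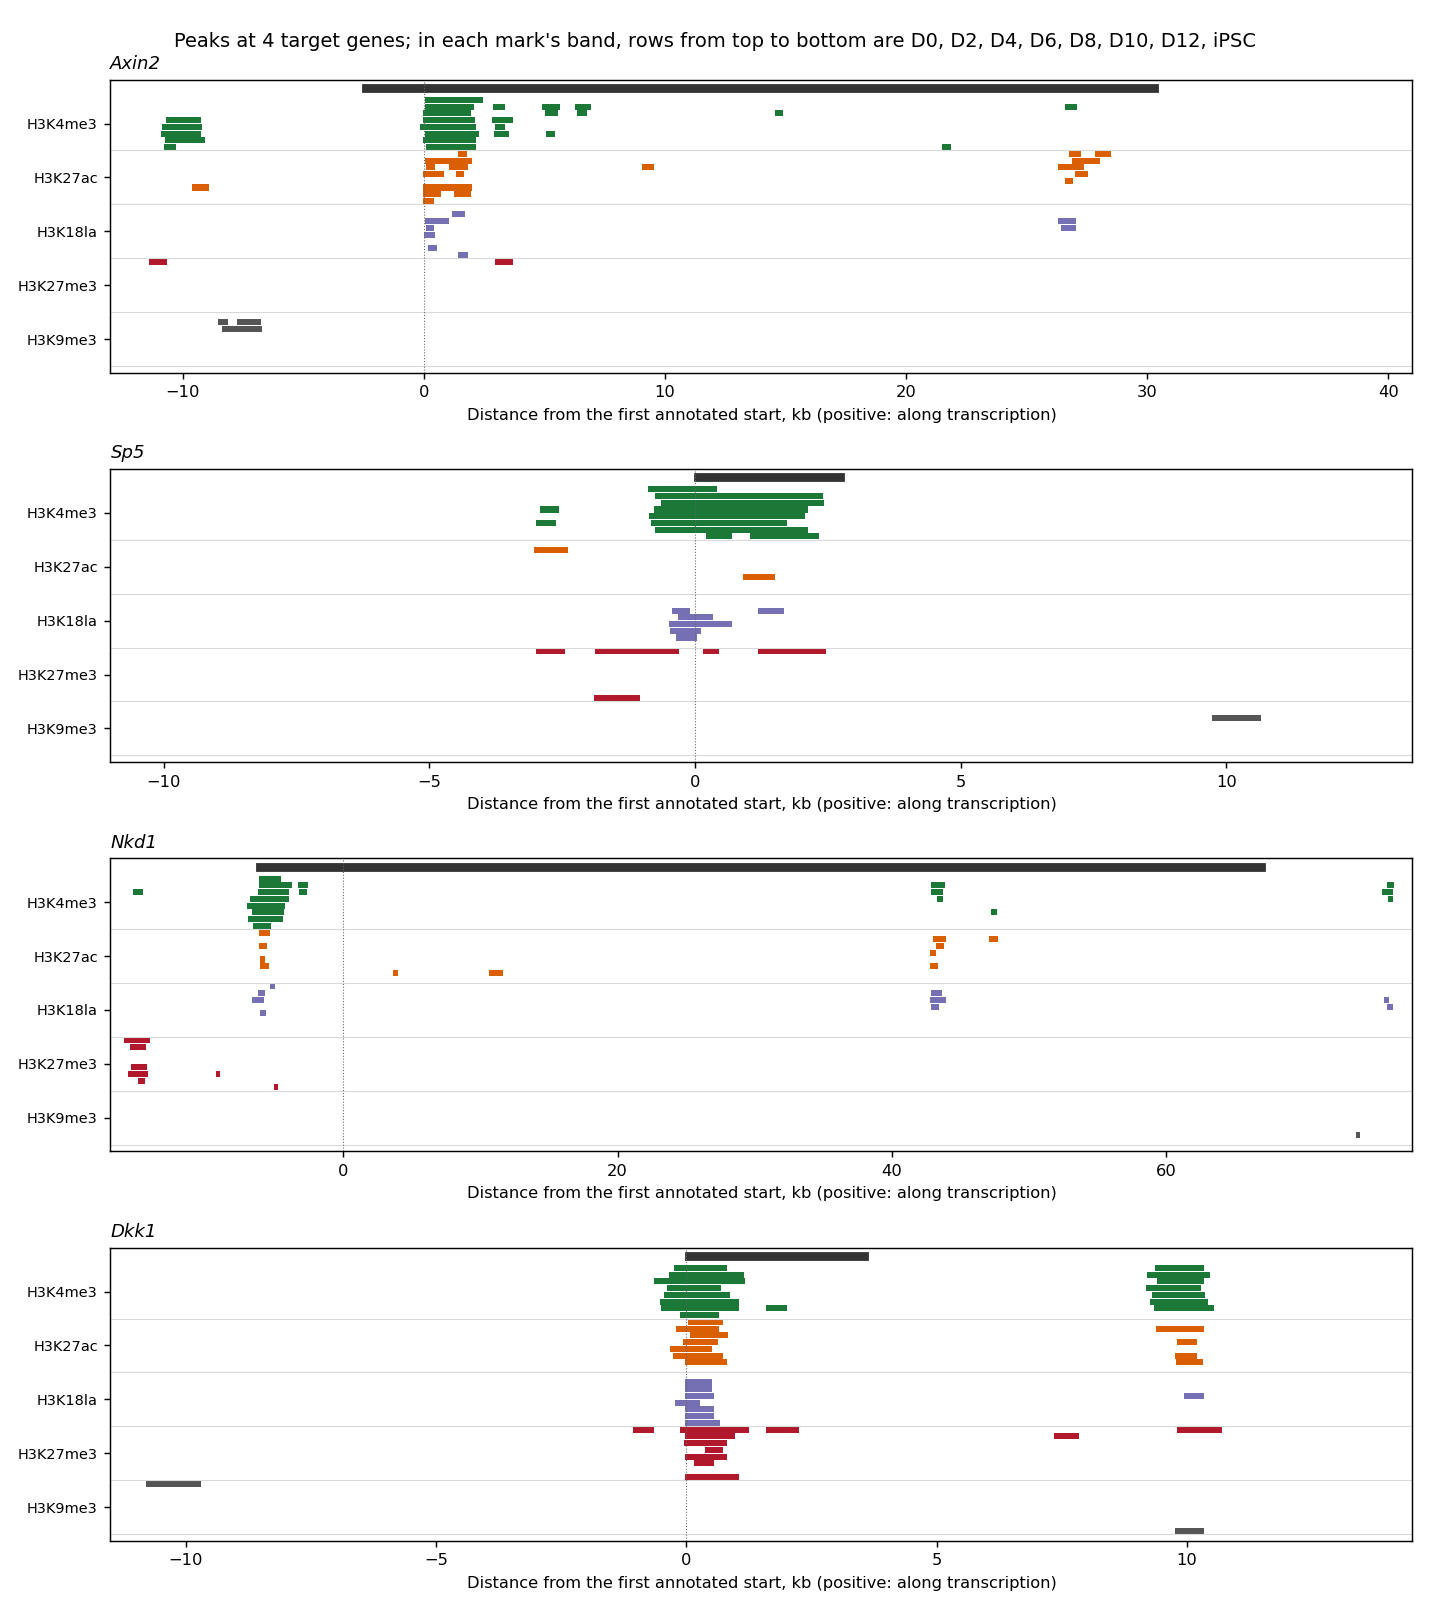
Peaks at Axin2, Sp5, Nkd1 and Dkk1 by distance from the first annotated start in kb (x axis); each mark has a band with 8 rows, D0 at the top and iPSC at the bottom, and the black bar is the gene. Sp5 shows 4 H3K27me3 peaks in the D0 row and 1 in the iPSC row, and the Dkk1 site near 10 kb is empty of H3K4me3 in the iPSC row.

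Merged over the 8 stages, the 9 regions held 58 H3K4me3, 64 H3K27ac, 37 H3K18la, 41 H3K27me3 and 6 H3K9me3 stretches. Of the H3K4me3 stretches 11 were called at all 8 stages, and of the other marks none was; over the whole lists 29.3% of H3K4me3 stretches and 5.98%, 5.86%, 2.47% and 3.51% of those of the other marks were. H3K27ac had 27 stretches called at D0 and not in iPSCs against 5 the other way, where the whole lists had 29445 against 12553. H3K27me3 had 15 against 2, beside 13248 against 8663. H3K4me3 had 5 against 19, of which 14 were called in iPSCs alone, beside 3143 against 18413. The direction in each of these 3 marks was that of the whole lists. Most H3K27ac stretches called at D0 and not in iPSCs lay in the longest regions, Tcf7l1 (183 kb) and Tcf7l2 (212 kb). They include the stretch near the start of Tgoln1. Most H3K4me3 stretches called in iPSCs alone lay in Tcf7l1. The H3K27ac and H3K4me3 counts thus describe these genes more than the other members. Between D2 and D12 only, 28 H3K27ac, 23 H3K18la, 22 H3K27me3 and 21 H3K4me3 stretches were called. Most peaks, 372 of 473, lay inside the gene bounds, 58 upstream and 43 downstream, and 152 within 1 kb of an own start. For stretches called only between D2 and D12 or in iPSCs alone, and for these places, no share over the whole lists was computed. Those counts are descriptions and do not set the 9 genes apart.

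Peaks of different marks also overlapped within a stage. At D0, 5 of 17 H3K27me3 peaks shared bases with an H3K4me3 peak (29.4%, against 25% of the whole list), at Tcf7, Sp5 and Dkk1. In iPSCs 2 of 4 did (50%, against 45.6%), at Lef1 and Dkk1. Of the H3K18la peaks, 5 of 7 shared bases with H3K27ac at D0 (71.4%, against 75.9%), 10 of 15 at D4 (66.7%, against 68.7%) and 8 of 18 at D6 (44.4%, against 61.8%). In iPSCs 0 of 7 did, against 51.8% of the whole list, while 5 of these 7 shared bases with H3K4me3. None of the 8 H3K9me3 peaks of these genes shared a base with H3K4me3, which 1.35% to 19.9% of the whole lists did.

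The rest of the pathway was described with 73 further genes in 6 lists. At D0, D12 and in iPSCs, 50, 48 and 20 of them had H3K27ac at a start and 61, 63 and 69 had H3K4me3. The counts at starts in this paragraph and the next are to be read against the shares of all genes. These were 56.1%, 52.7% and 30.8% for H3K27ac, 60.7%, 62.2% and 62.9% for H3K4me3 and 21.1%, 10.4% and 19.5% for H3K27me3. In the degradation complex, 9 of 11 genes had start H3K27ac at D0 and 7 in iPSCs. Those 2 that had it at D0 and not in iPSCs were Btrc, a subunit of the ubiquitin ligase that binds β-catenin, and Tnks, a tankyrase that marks Axin for turnover. Among 15 receptors and Dishevelled genes the counts were 14 at D0 and 3 in iPSCs, and the highest folds among the 11 with it at D0 and not in iPSCs were at Fzd6 (6.55), Dvl3 (5.80) and Fzd3 (5.32). Of 21 secreted modulators and genes of receptor turnover, 18 had H3K27me3 at a start at D0, 7 at D12 and 14 in iPSCs. At a start, 10 of them had H3K27ac at D0 and not in iPSCs, with the highest folds at Rspo2, Lgr5 and Wif1 (6.57, 6.48 and 5.67). Rspo4, Sfrp5 and Kremen2 had H3K4me3 at a start in iPSCs and not at D0. Of 10 nuclear cofactors 9 had start H3K27ac at D0 and 4 in iPSCs, and those without it in iPSCs included Ctnnbip1, Pygo1 and Pygo2.

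Of 12 further target genes, 9 had H3K27me3 at a start at D0, 3 at D12 and 4 in iPSCs, and H3K4me3 was called at 7, 8 and 12. At a start, 5 of them had H3K4me3 in iPSCs and not at D0, with the highest folds at Fgf20, Cdx4 and Cdx2 (9.37, 7.04 and 5.52). Cdx1 was the single gene with start H3K27ac in iPSCs and not at D0 (3.38). Apcdd1, Nkd2 and Mycn had H3K27ac at a start at D0 and not at a start in iPSCs. Nanog, Esrrb, Tfcp2l1 and Klf2 are known to be repressed by TCF7L1 in mouse embryonic stem cells. All 4 had an H3K27ac peak in their regions at D0, D12 and in iPSCs, beside 70%, 69.7% and 50.4% of all genes. At a start H3K27ac was called at only 1, 2 and 1 of them, beside 56.1%, 52.7% and 30.8% of all genes. The median H3K27ac covered percent of the 4 regions was 3.15, 5.51 and 4.49 against 2.17, 1.77 and 0.12 over all genes. H3K27me3 was called in the regions of 3, 0 and 1 of them, beside 38.1%, 28% and 37.3% of all genes. At a start it was called at 3, 0 and 0.

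Genes whose covered percent moved most like a member's were ranked by Pearson's r over the 40 lists, after subtracting each gene's mean within a mark, among 16526 to 16528 genes. The lists share their depth and length between genes, so r is a description. Tcf7l1 was followed most closely by Zmynd8 (0.89), Drosha and Sipa1l3 (0.88 each), and Tcf7l2 by Galnt2 (0.88), Hbegf and Dock5 (0.86 each). Sp5 came nearest to Tlx3 (0.87), Hcrt and Ghdc (0.86 each), and Dkk1 to Sec31b (0.84), Skor1 and Ache (0.83 each). For Tcf7 the 3 highest were Hoxd9 (0.82), Gata2 and Sp5 (0.79 each), so that 2 members met in this ranking. The values for Ctnnb1 were 0.80 with Rap2c, 0.75 with Nmrk1 and 0.74 with Rps10, and for Nkd1 0.79 with Tmem100, 0.75 with Edar and 0.71 with Rps3. Lef1 was nearest to Notum (0.77), which encodes a secreted Wnt-inactivating enzyme, then to Pde10a (0.76) and Tshz3 (0.75). Axin2 had the lowest values, 0.71 with H3f3a, 0.70 with Pde11a and 0.68 with Cpvl.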

How the data were processed

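Titles gave the mark and stage of each CUT&Tag library. There are 40 peak lists of 10 columns. The submitters' processing notes name MACS2 2.1.2, Bowtie2 2.2.5, deepTools 3.4.3, fastp 0.20.1 and mm10. The sources used here do not say whether the 2 libraries of a group were pooled or a control was used. For every peak the authors deposited a fold enrichment (ratio to the local background), −log10 p-value, −log10 q-value and summit offset. The −log10 q-value served as the score for a stricter selection of deposited peaks.

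Peaks on the numbered chromosomes, X and Y were overlapped (at least 1 bp) with the bounds of 21883 RefSeq genes of GRCm38.p6 extended by 10 kb, and with windows of 1 kb either side of tabulated starts (17491 genes; both gene ends otherwise). The other 3092 of 713652 peaks were left out. Exons, introns and UTRs were not used here. Fragments and background behind a peak were solved from fold and p-value under the caller's Poisson model, within 0.01 on the −log10 scale for 100.0% of peaks, and the most common background was taken as depth. The step was tested on simulated data. Folds of different lists stand side by side as descriptions.

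Members and lists were chosen with earlier results of these data known. Named pathway genes have an H3K27ac or H3K4me3 start peak in only 1 of D0 and iPSC, at most 3 per list, direction and mark by authors' fold. The 3 genes with the highest r were named per member. No gene was tested, since 1 list per group has no spread. Python 3.11.15, numpy 2.4.6, pandas 2.3.3, scipy 1.17.1 and matplotlib 3.10.9 were used. Alternatives were stricter peaks (−log10 q of at least 5), lists cut to equal length within a mark, other region and window sizes, larger overlaps, and peaks at other genes' starts left out.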

Additional observations from a re-analysis of the deposited data

How the results depend on the processing

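No paired analysis was possible because there is 1 list per mark and stage, whose columns carry no replicate, and for the same reason no replicate could be left out. Of 308 recounts of genes with a peak, or of genes changing between stages, 256 stayed within 1.5 times, as did 105 of 124 recounts at starts and 30 of 31 of shared marks. With lists of equal length within a mark the H3K27ac count at D0 was 3, H3K18la 1 at D0, 2 at D4, 4 at D6, 3 at D8 and 2 in iPSCs, H3K27me3 2 in iPSCs and H3K9me3 0 at D0. The H3K27ac changes then were 1 gene lost from D12 to iPSC and 5 gained from D0 to D2, and 5 genes had a higher H3K4me3 start peak at D2 to D12, where a gene with no listed peak at a stage has no value. In the start window 1 gene had H3K27ac in iPSCs, 1 had H3K18la at D0 and 1 in iPSCs, 2 had H3K27me3 in iPSCs, and 0 had H3K9me3 at D0 or in iPSCs. With gene bounds only, or a 5 kb extension, H3K9me3 was at 0 genes at both stages, and with at least 50% of the peak inside it was at 0 at D0. The 4 losses of H3K27me3 from D0 to D2 stayed at 4, or 3 at starts.

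The difference in covered percent, iPSC less D0, kept its sign and stayed within 1.5 times in 57 of 108 recounts, moved farther or to 0 in 40 and changed sign in 11. With stricter peaks it was 0.32 for H3K4me3 at Tcf7 and 0.17 for H3K27ac at Axin2. With equal lengths it was -1.17, -1.19 and -0.63 for H3K4me3 at Tcf7l2, Lef1 and Axin2, and 0.41, 0.05 and 0.87 for H3K27ac at Tcf7l2, Lef1 and Axin2. With gene bounds only it was -0.18 for H3K4me3 at Lef1 and 0.43 for H3K27me3 at Nkd1, and with a 5 kb extension 0.38 for the latter. The cause of these moves was not tested. A missing peak means only that none reached the caller's p-value in that list.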
